A study of Apis mellifera with 10 samples.

Results

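The baseline transcriptome of the newly emerged honey bee antenna is described here from the 5 buffer-injected control libraries, which are 5 of the 10 libraries of the series. They carry the replicate numbers 3, 4, 5, 6 and 7. Embryos of Apis mellifera received injection buffer alone in the control group, and a CRISPR ribonucleoprotein against the gene orco in the other 5 libraries (orco_KO). All bees were raised in the laboratory, and antennae were collected no later than 24 h after the adult emerged. No strain, sex or caste is given in the labels, and they do not say whether a library is 1 bee or a pool, so the SD between libraries may hold technical as well as biological spread. Each library gives a read count for the same 12337 rows, of which 12332 are bee genes and 5 are virus genomes that were left out.

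The antenna is the main organ of smell of an insect. Odour molecules enter hair-like sensilla through pores, are carried through the sensillum lymph by soluble odorant-binding proteins secreted by support cells, and reach odorant receptors in the dendrites of olfactory neurons. Each such receptor forms an ion channel with a shared coreceptor, Orco, which the annotation lists as Or2. Around emergence the appendage still carries traces of its pupal development: the ecdysone hormone cascade has run, the new cuticle is hardening and darkening, and neurons complete their synapses.

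The tissue label was checked against marker genes. Or2 had 382 ± 82.6 CPM (mean ± SD, n = 5). CPM is the read count of a gene divided by the TMM-scaled size of its library, as explained with the processing. All 7 neuron markers that could be matched by symbol and 14 of the 19 odorant-binding protein genes had at least 1 CPM in every library. Of all 9928 protein-coding genes 76.2% did, so the count of odorant-binding proteins alone does not mark the tissue. Other counts of list members past 1 CPM are to be read beside that share. Markers of eye, glands, venom and silk were low, whereas those of muscle were not. All 8 muscle genes passed 1 CPM in every library, with a median of 19.3 CPM per kb of gene span against 14.9 for the neuron markers. By reads the order was the reverse, with medians of 248 CPM for muscle and 1287 CPM for the neuron markers. The haemolymph gene Tsf1 had 77.3 CPM per kb. Of 15 genes of head glands and venom, 2 passed 1 CPM in every library, and all 15 together summed to 9.38 to 31.9 CPM, led by Mrjp9. The royal jelly protein genes Mrjp1, Mrjp3, Mrjp4 and Mrjp6 and the venom genes Pla2, Apamin and Mcdp had no read in any library. A count of 0 over the 85905820 control reads allows up to 0.0349 CPM, from 3 counts over the group and for counting error only. It does not cover reads left out because they mapped to several places or fell on overlapping genes. Of the 15 genes, 4 overlap another on the same strand, Pla2 among them. The 4 opsin genes of the eye summed to 3.09 to 9.23 CPM, led by Uvop, and the 4 silk fibroin genes to 2.19 to 8.47 CPM. The opsin Lop1 had 0.193 ± 0.177 CPM and the storage hexamerin Hex70a 0.517 ± 1.05 CPM. Per kb of gene span, the highest of the gland and venom genes had 2.55 CPM, the highest opsin 1.85 and the highest silk gene 2.57, against 15.1 for Or2 and 2.92 to 69.7 for the neuron markers. The median of the odorant receptors that pair with Orco was 1.43 CPM per kb, below those highest gland, opsin and silk genes. The part of muscle and haemolymph cells in the other results was not tested.

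Bee gene totals were 9497211, 15246064, 16128744, 21580111 and 23453690 reads in replicates 3 to 7. The libraries thus differed in depth, and replicate 3 had the fewest reads. Between 10161 and 10919 genes had a read in a given library. At least 1 CPM in all 5 libraries was reached by 8040 of the 12332 genes (65.2%), at least 10 CPM by 4477 and at least 1000 CPM by 104. No read was found in any library for 1068 genes (8.66%). Of the 9928 protein-coding genes, 7565 (76.2%) had at least 1 CPM in every library. Of the 1858 genes of long noncoding RNA, only 449 (24.2%) did.

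Reads were spread over many genes. The gene with most reads took 2.81 ± 0.752% of a library, the 10 highest 10.96 ± 1.102%, the 100 highest 35.04 ± 2.61% and the 1000 highest 77.7 ± 3.06% (n = 5). The number of genes that together made up 50% of the reads was 192, 244, 229, 287 and 287 in replicates 3 to 7. Replicate 3 was therefore the most concentrated library, and replicates 6 and 7 the most even. Protein-coding genes held 94.2 ± 0.441% of the reads, long noncoding RNA genes 2.08 ± 0.126%, genes annotated as microRNA precursors 2.83 ± 0.752% and ribosomal RNA genes 0.675 ± 0.324%. Transfer RNA genes were nearly empty, as 186 of 196 had no read.

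**Figure D1:**
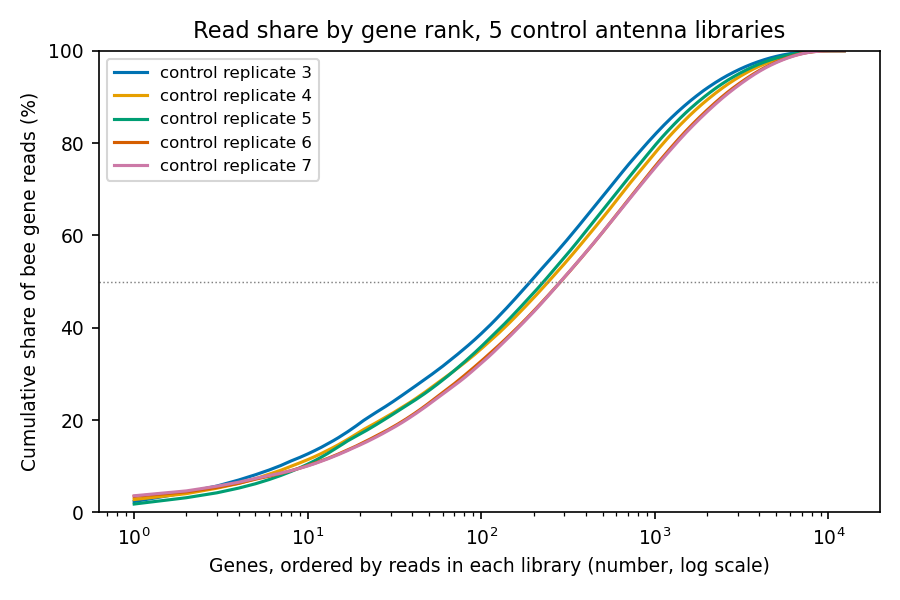
Cumulative share of bee gene reads (%, vertical axis) against the number of genes ordered by reads within each library (log scale), 1 line per control replicate, with a dotted line at 50%. The line of replicate 3 reaches 50% with 192 genes and those of replicates 6 and 7 with 287 genes.

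The gene with most reads in each of the 5 libraries was Mir3759, annotated as a microRNA precursor of 92 bases on linkage group 5 (positions 351640 to 351731 of Amel_HAv3.1, minus strand). It had 30076, 27482, 20003, 28333 and 28534 CPM in replicates 3 to 7. Replicate 5 was the lowest under both scalings. The other 4 libraries lay close together with TMM but not with plain library sizes, where they ran from 23562 to 36104 CPM. Nearly all reads on microRNA precursors were on this gene: the next, Mir9888, had 34.7 ± 10.8 CPM, and 168 of 238 precursors had no read. What was sequenced here is RNA long enough for a standard library, so these values do not measure mature microRNAs. Sequencing ran over 101 cycles, more than the 92 bases of Mir3759. Whether its reads come from a longer transcript was not tested.

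Ranked by reads, the 20 highest genes took 16.5% of all bee gene reads. Of these 20, 14 carry only an LOC number, 14 have a span over 30 kb, and 16 were among the 20 highest in every library. After Mir3759 came LOC409051 (13345 ± 7464 CPM), LOC551356 (10112 ± 3293), LOC408915 (9791 ± 2452) and LOC408779 (9098 ± 5046), all with a span above 75 kb. The set also holds LOC411083, LOC551259, LOC409007, LOC409843, LOC551123, LOC100578925, LOC410353, LOC408421 and LOC408677, at 5211 to 8282 CPM. The ribosomal RNA gene LOC113219383 had 7152 ± 4500 CPM after depletion of ribosomal RNA. The named genes among the 20 were Mir3759, Obp2, Mblk-1, Mad, Ancr-1 and Obp1. Mad encodes the transcription factor that carries BMP signals to the nucleus, spans 409447 bp and had 6290 ± 2259 CPM. It overlaps another gene on the same strand, as do 7 of the 20, so its reads are less certain.

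Longer genes had more reads. Reads were counted over the whole span with its introns, and how much of the relation comes from introns was not tested. Among 8217 protein-coding genes with a mean of at least 1 CPM, Spearman's rho between span and CPM was 0.578, and between span and CPM per kb of span −0.102. Both values are across genes, which are not replicates. The 393 genes longer than 100 kb are 3.19% of all genes and held 28.2 ± 0.675% of the reads. The 1146 genes of up to 1 kb held 3.22 ± 0.797%, most of it Mir3759. Levels of different genes are therefore compared as CPM per kb of span below. CPM, summed CPM, shares of a list and orders given by reads say how the reads were divided, not which gene has the higher level. By that measure the ranking was largely another: the 100 highest genes by reads and the 100 highest per kb shared 25, and their median spans were 99930 and 3332 bp.

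**Figure D2:**
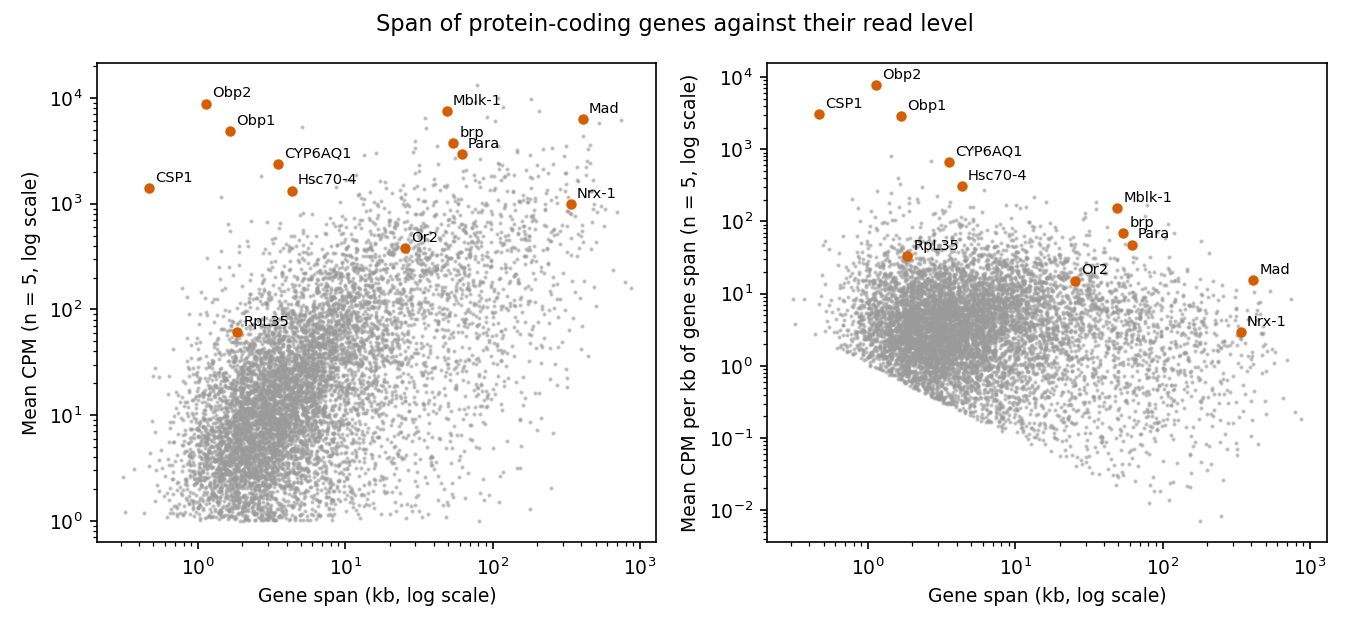
Protein-coding genes with a mean of at least 1 CPM: gene span (kb, log scale) against mean CPM (left) and mean CPM per kb of span (right), both on log scales, n = 5 control libraries; named genes are orange. Mad and Nrx-1 stand high on the left and lie within the cloud on the right, while Obp2, CSP1 and Obp1 stand above it in both. The right panel divides by the whole span with its introns, as exon lengths were not used.

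Per kb, the 10 highest genes matched as protein-coding were led by carriers of small molecules. An unmatched mitochondrial row with 1339 CPM per kb, described below, was not ranked with them. Obp2 had 7821 ± 4964 CPM per kb, CSP1 3058 ± 1584, Obp1 2909 ± 1991 and CSP3 810 ± 356. They were joined by the cytochrome P450 gene CYP6AQ1 (676 ± 332 CPM per kb), the heat shock cognate chaperone Hsc70-4 (308 ± 88.7) and 4 genes without a name. These were LOC408421 (1046 ± 345), LOC409173 (686 ± 384), LOC102656354 (406 ± 217) and LOC408695 (333 ± 204). The median of all 9928 protein-coding genes was 2.44 CPM per kb. Only means are ranked here, since the values of neighbours in this order overlapped between libraries.

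The coreceptor gene Or2 lies on linkage group 1 (positions 5723757 to 5749095, plus strand) and spans 25339 bp. It had 493, 306, 448, 338 and 328 CPM in replicates 3 to 7. The 5 values lay within 1.61-fold of each other, and replicate 4 was the lowest. Scaled by plain library sizes instead, Or2 was highest in replicates 6 and 7 and again lowest in replicate 4, at 0.0311% of the reads against 0.0386% to 0.0415% elsewhere. Per kb it had 15.1 ± 3.26 CPM, and it ranked between 483 and 674 by reads over the libraries.

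Receptors that pair with Orco were low and many. The annotation gives an Or symbol to 34 of them, counting LOC100578724 (synonym Or151), which is only some of the bee's large receptor family, since other members may carry LOC numbers. At least 1 CPM in every library was reached by 24 of the 34, beside 76.2% of all protein-coding genes, and Or130 and Or131 had no read. Their summed level was 178, 141, 169, 163 and 157 CPM in replicates 3 to 7, or 0.0167 ± 0.00298% of the reads. The sum was thus within a narrow band with TMM, while the shares of raw reads ran from 0.0139% in replicate 3 to 0.0199% in replicate 6. The highest by reads were Or30 (17.5 ± 1.54 CPM, overlapping another gene), Or12 (15.2 ± 3.92) and Or109 (12.5 ± 2.11).

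Per kb the median receptor had 1.43 CPM, below the median of all protein-coding genes. Or12, the highest, had 9.20 CPM per kb, and Or2 was above it in each library, by 1.31- to 2.16-fold. Or19 followed Or12 with 7.38 CPM per kb. No receptor took most of the reads: Or30 held 10.8% of the summed CPM. Or11, the receptor known to detect the main queen pheromone component in drones, had 7.92 ± 2.48 CPM. The gustatory receptor Gr10 was the only gene with a Gr symbol and had 1.74 ± 1.504 CPM, resting on 122 reads over the 5 libraries.

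Odorant-binding proteins stood at the other end of the scale, with a median of 29.0 CPM per kb. The 19 genes summed to 31321, 18538, 15257, 7120 and 6898 CPM in replicates 3 to 7, or 1.49 ± 0.682% of the reads. Replicate 3 was the highest and replicates 6 and 7 were the lowest, which also held for shares of raw reads (2.45, 1.89, 1.39, 0.873 and 0.873%). Obp2 and Obp1 made up 86.6% of the summed CPM.

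Obp2, on linkage group 9 (positions 11974257 to 11975390, plus strand), had 17793, 10093, 8229, 4028 and 4203 CPM in replicates 3 to 7. Obp1, known for binding components of the queen pheromone and located on linkage group 2 (positions 14654212 to 14655874, minus strand), had 9952, 5694, 4686, 1948 and 1906 CPM. Both were highest in replicate 3 and lowest in replicates 6 and 7, with a 4.42-fold and a 5.22-fold range. The ratio between them moved far less: Obp2 had 2.62, 2.60, 2.58, 3.03 and 3.23 times the CPM per kb of Obp1 in the 5 libraries. Within the list, Obp2 was the first and Obp1 the second in every library, by reads and per kb.

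The next genes by reads were Obp6 (1096 ± 618 CPM) and Obp5 (309 ± 261 CPM). Per kb their order was the reverse, at 43.8 ± 24.7 for Obp6, which spans 25009 bp, and 268 ± 227 for Obp5, which spans 1150 bp. Obp5 was high in replicate 3 at 735 CPM, and its mean without that library was 202 CPM. Obp18 (218 ± 61.7 CPM), Obp21 (113 ± 109), Obp16 (92.3 ± 83.7), Obp4 (87.7 ± 34.4), Obp11 (54.0 ± 46.2), Obp15 (52.8 ± 39.3) and Obp17 (40.6 ± 14.0) formed a middle class. The SD of Obp21, Obp16 and Obp11 came close to their means, and replicates 6 and 7 were far below replicate 3. Obp21 had 278 CPM in replicate 3 and 13.4 in replicate 6, and Obp11 had 117 CPM in replicate 3 and 8.56 in replicate 7.

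Obp10 had 21.4, 23.7, 19.8, 21.9 and 24.1 CPM and the smallest CV (SD divided by mean) of the family with TMM, 0.0802. With plain library sizes its CV was 0.251, above the 0.212 of Obp7. Obp12 had 11.2 ± 3.55 CPM. Obp19 was low except in replicate 4: it had 7.80, 89.1, 3.54, 2.50 and 2.66 CPM, and its mean of 21.1 CPM becomes 4.12 without that library. Obp7 (1.39 ± 0.478 CPM, 119 reads in all) and Obp9 (0.572 ± 0.126, 57 reads) were low but read in every library. Obp3 (0.158 ± 0.198 CPM, 10 reads) and Obp14 (0.0913 ± 0.142, 6 reads) were near the limit of detection, and Obp13 had no read. Genes within 1 cluster had unlike levels: Obp2 to Obp7 lie together on linkage group 9, between positions 11945173 and 11982906.

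**Figure D3:**
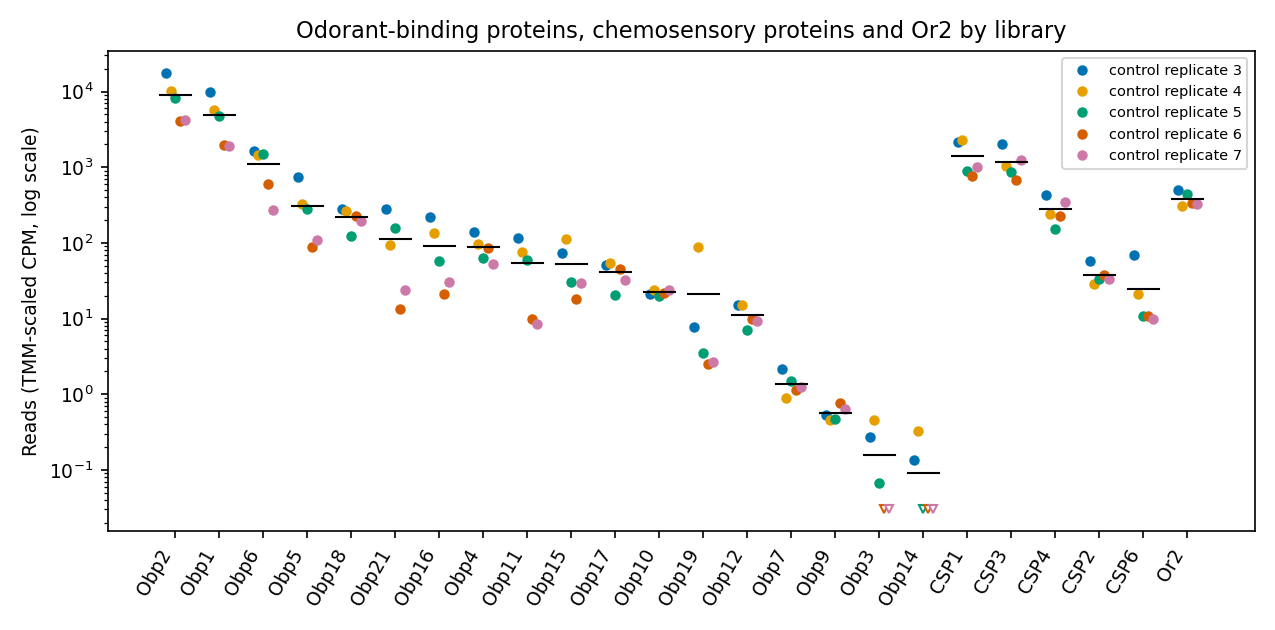
TMM-scaled CPM (log scale) of odorant-binding proteins, chemosensory proteins and Or2 in the 5 control libraries, 1 colour per replicate; black bars are means and open triangles at the bottom are libraries without a read. Obp2 ranges from 4028 to 17793 CPM and Obp10 from 19.8 to 24.1 CPM; Obp13, with no read, is not drawn.

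Chemosensory proteins are a second family of small soluble carriers, found in sensilla and in other tissues. All 5 genes had at least 1 CPM in every library, and together they held 0.291 ± 0.0899% of the reads. CSP1 had 2150, 2275, 899, 761 and 994 CPM and CSP3 had 1996, 1024, 864, 678 and 1239 CPM in replicates 3 to 7. CSP1 was high in replicates 3 and 4, while CSP3 was highest in replicate 3. With plain library sizes CSP3 was as high in replicate 7 (1567 CPM) as in replicate 3 (1564 CPM). CSP4 had 279 ± 107 CPM and CSP2 37.7 ± 11.2 CPM. CSP6 had 69.4 CPM in replicate 3 and between 9.74 and 21.3 CPM in the others, so that its mean of 24.4 becomes 13.2 without replicate 3. CSP1 was the highest per kb in each library, at 2.48 to 6.88 times the level of CSP3.

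Enzymes that clear odorants and foreign compounds were led by 1 gene in each family, by reads and per kb. CYP6AQ1 held 91.1% of the summed CPM of the 7 listed cytochrome P450 genes. It had 4044, 2498, 2820, 1375 and 1159 CPM in replicates 3 to 7 and was lowest in replicates 6 and 7. LOC724946 (synonym CYP6AS11) followed with 83.2 ± 82.0 CPM, or 50.1 without replicate 3, and LOC551028 (synonym CYP6AS13) with 74.6 ± 40.7 CPM. LOC551179 (synonym CYP15A1), whose counterpart makes juvenile hormone in other insects, had 0.181 ± 0.207 CPM. GstD1, a glutathione transferase, had 406 ± 133 CPM and held 93.2% of the summed CPM of the 3 listed transferases, with GstS1 at 26.3 ± 7.16 and GstS4 at 3.15 ± 1.27 CPM.

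By mean CPM the neuron markers ranked from 23 (brp) to 746 (Syt1) among all bee genes, and per kb from 132 (brp) to 4636 (Nrx-1). Their sum was 18381, 11256, 15062, 7961 and 7638 CPM in replicates 3 to 7. The most read was brp, which encodes the scaffold of the presynaptic active zone, with 7350, 3738, 5131, 1401 and 1138 CPM. The voltage-gated sodium channel gene Para varied less, with 4076, 2626, 3164, 2294 and 2568 CPM. Replicates 6 and 7 were the lowest for brp under both scalings, and its 6.46-fold range was 3.998-fold with plain library sizes.

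Camkii, the calcium-dependent protein kinase of synapses, had 1906 ± 509 CPM but overlaps another gene. Nrx-1, the neurexin that links both sides of the synapse, had 987 ± 152 CPM from a span of 337998 bp. Per kb, brp (69.7 ± 48.4), Syx1A (49.6 ± 16.7) and Para (47.8 ± 11.5) led, and Nrx-1 had 2.92 ± 0.449 CPM. Syt1, the calcium sensor of vesicle release, had the fewest reads of the markers, at 266 ± 92.9 CPM. The glutamate transporter Eaat-2, the only glial marker matched by its symbol, had 7.40 ± 1.07 CPM. A list of 1 gene does not give the level of glial RNA.

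Of 18 listed transmitter receptors and related channels, 12 had at least 1 CPM in every library, beside 76.2% of all protein-coding genes. The pH-sensitive chloride channel pHCl (895 ± 122 CPM) and the glutamate-gated chloride channel GluCl (526 ± 146 CPM) held 70.2% of the summed CPM, and both overlap other genes on their strand. Per kb GluCl was the higher, at 14.02 against 11.8. Glurb had 168 ± 52.8 CPM. The nicotinic receptor subunit nAChRb2 had no read. All 9 receptors of biogenic amines passed 1 CPM in every library. By reads the first were the dopamine receptor Dop3 (84.5 ± 27.9 CPM), the serotonin receptor 5-ht7 (42.2 ± 16.2) and the octopamine receptor Oa1 (34.0 ± 17.3), with Dop1 the last (6.10 ± 1.45). Per kb Oa1 was the highest at 2.09 CPM, against 0.592 for Dop3 and 0.106 for 5-ht7, which span 142846 and 398906 bp.

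Neuropeptide genes were rarely read in the antenna. Only 3 of 11 listed peptides and peptide receptors had at least 1 CPM in every library: the SIFamide receptor SIFR (168 ± 32.1 CPM, overlapping another gene), the corazonin receptor Crzr (12.8 ± 6.89) and tachykinin, Tk (6.93 ± 1.11). The corazonin gene Crz itself had no read.

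Genes of the ecdysone response were led by Mblk-1. Mblk-1, a transcription factor related to the ecdysone-induced factor E93 of Drosophila, had 12446, 7492, 8776, 4459 and 4164 CPM in replicates 3 to 7 and ranked between 7 and 10 in every library. It held 65.6% of the summed CPM of 7 genes of hormone response, all of which passed 1 CPM in every library. The ecdysone receptor Ecr had 1839 ± 604 CPM, its partner Usp 445 ± 96.9 and the early gene E75 1086 ± 772.

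E75 had 2186, 1191, 1356, 374 and 321 CPM in replicates 3 to 7, while E74 had 439, 444, 397, 659 and 652 CPM. Replicates 6 and 7 were thus the lowest for E75 and the highest for E74, also with plain library sizes. E74 overlaps another gene. Kr-h1, a transcription factor induced by juvenile hormone, had 2.15, 11.7, 7.29, 16.3 and 13.9 CPM, lowest in replicate 3. The pupal factor Br-c had 11.4 ± 3.30 CPM. Per kb, Mblk-1 had 153 ± 69.7 CPM, about 10 times Ecr at 15.2 ± 5.00.

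Cuticle genes summed higher in replicates 6 and 7 than in the others. The 27 listed genes summed to 853, 868, 688, 1749 and 1561 CPM in replicates 3 to 7, and 16 passed 1 CPM in every library. CPR14, which belongs to the family with the Rebers-Riddiford chitin-binding motif, held 53.9% of that sum, with 474, 336, 246, 1157 and 867 CPM. Shares of raw reads gave the same order for the list (0.0668, 0.0883, 0.0626, 0.214 and 0.197%). CPR6 also was highest in replicates 6 and 7, with 13.0, 9.73, 12.7, 45.1 and 120 CPM, and its mean of 40.1 becomes 20.1 without replicate 7.

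Apidermins, cuticle proteins known from bees, did not move together. Apd-2 had 39.9, 165, 96.2, 127 and 195 CPM, whereas Apd-1 had 32.1, 71.6, 99.5, 5.37 and 1.79 CPM, a 55.7-fold range. Per kb Apd-2 was the highest of the cuticle list, at 97.4 CPM against 67.6 for CPR14. CPR19 had 59.7 to 99.0 CPM. CPR13 and CPR21 rested on 2 reads each. Of the tanning and yellow genes, tyrosine hydroxylase (TyHyd), which makes DOPA for cuticle tanning and for catecholamine transmitters, held 99.6% of the summed CPM with 2897 ± 595 CPM. The yellow family members were low: Y-y had 7.24 ± 4.21, Y-f 2.88 ± 2.19, Y-h 0.912 ± 0.496 and Y-e3 0.0487 ± 0.0571 CPM.

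Muscle genes were led per kb by the troponin gene TpnCIIIa (209 CPM per kb). The arginine kinase gene Argk, also used by nerve cells, had 1356 ± 327 CPM. The troponins TpnT (491, 970, 966, 624 and 316 CPM) and TpnI (352, 996, 1005, 500 and 327 CPM) were highest in replicates 4 and 5. TpnCIIIb had 4.03, 49.2, 5.72, 2.99 and 2.59 CPM, and its mean of 12.9 becomes 3.83 without replicate 4. The muscle gene with fewest reads was TpnCIIb, at 6.70 ± 3.11 CPM.

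Of the 7 listed haemolymph genes, only the transferrin gene Tsf1 and Vg had at least 1 CPM in every library. Per kb, Vg had 5.66 ± 6.07 CPM, above the median of 2.44 for all protein-coding genes. Tsf1 had 238 ± 83.2 CPM and Vg, the yolk precursor vitellogenin, 98.0, 23.6, 38.2, 4.88 and 10.2 CPM, with 19.2 CPM on average without replicate 3. The prophenoloxidase gene PPO, a haemocyte marker, had 3.49, 20.7, 7.22, 2.27 and 2.59 CPM. Replicate 4 was highest for PPO, and it was also highest for the storage proteins Hex70a (2.38 CPM, 0 to 0.202 elsewhere), Hex110 (1.48 CPM) and Vhdl (4.25 CPM), all with few reads. Obp19 and TpnCIIIb peaked in the same library, and the part of blood cells or other tissue in those peaks was not tested. In bulk RNA, more cells of a type and more RNA per cell cannot be told apart.

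Antimicrobial peptides had few reads, and 4 of 8 immune genes passed 1 CPM in every library. Def1 had 0.668 ± 0.993 CPM, Apid1 2.54 ± 2.60 and Def2 1 read in all. The NF-kappaB factor Dl (78.8 ± 24.4 CPM), the signalling adaptor Imd (9.68 ± 2.63) and the recognition protein Pgrp-s2 (9.07 ± 1.75) were the highest of 8. Replicate 6 held 2582 reads on the genome of Israeli acute paralysis virus against 1 to 19 in the other control libraries; there Def1 had 0.454 CPM and Def2 its 1 read, and Imd was highest, at 13.7 CPM against 6.32 to 9.60 elsewhere. In all, 3 of the 8 immune genes, Def2 among them, were highest in replicate 6 with TMM and 4 with plain library sizes. Among all 5212 genes with a mean of at least 10 CPM, 718 and 1296 were highest there on these 2 scales. Of the 8 immune genes only Dl has such a mean. The part of the virus in these values was not tested.

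Of the 4 chaperone genes, Hsp90, Hsc70-3 and Hsc70-4 were highest in replicates 6 and 7, where the sum of odorant-binding proteins was lowest. Hsp90 had 389, 162, 124, 690 and 763 CPM and Hsc70-4 had 1311, 1007, 912, 1790 and 1645 CPM in replicates 3 to 7. Hsc70-3, the chaperone of the endoplasmic reticulum, had 258 ± 80.0 CPM and Hsc70-5, that of mitochondria, 171 ± 39.2. Hsc70-5 differed in being highest in replicate 3, with 230, 174, 120, 165 and 166 CPM, but was highest in replicate 7 with plain library sizes. The 4 genes held 0.173, 0.156, 0.120, 0.368 and 0.363% of the raw reads, so their sum was higher in replicates 6 and 7 on this scale too.

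Per kb, the medians of the nuclear oxidative phosphorylation, ribosomal protein and antioxidant lists were above the 2.44 CPM of all protein-coding genes. Not every member was: the antioxidant gene MsrA had 1.11 CPM per kb. By reads the ribosomal protein list was lower, with a median of 8.54 CPM against 10.4 for all protein-coding genes. The 8 nuclear genes of oxidative phosphorylation had a median of 19.7 CPM per kb. The 7 ribosomal protein genes with a symbol had a median of 11.9 CPM per kb, led by RpL35 (33.0 ± 2.60). RpL32, often used as a reference gene in bees, had 5.12 ± 1.64 CPM. All 8 nuclear genes of oxidative phosphorylation passed 1 CPM in every library, with ATP5G2 (195 ± 46.7 CPM), Cox6b1 (97.9 ± 31.3) and CytC (70.1 ± 17.2) first by reads and Cox6c last (5.92 ± 1.62). The 8 antioxidant genes passed too: Sod1, the cytosolic superoxide dismutase, had 118 ± 59.0 CPM, Gtpx1 93.5 ± 41.7 and Trxr-1 86.4 ± 20.5, with MsrA the fewest reads (4.14 ± 1.73).

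Genes on the mitochondrial genome were read very unevenly. The unmatched row at positions 1794 to 3359 of the mitochondrial genome had 2097 ± 1062 CPM, or 1339 ± 678 CPM per kb. It ranked 6 per kb among all bee genes. As it has no symbol or gene class here, it is in no gene list and not in the ranking of protein-coding genes. CYTB followed with 87.7 ± 47.0 CPM and COX2 with 42.6 ± 25.7 CPM. The other genes were far lower: ND1 had 3.91 ± 2.13 CPM, COX3 0.689 ± 0.283 and ATP8 0.0539 ± 0.121. Replicate 4 was the highest library for the row at 1794 (3754 CPM), for CYTB (156 CPM) and for COX2 (80.9 CPM).

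Among the regulators of appendage identity most reads were on Dll, the Distal-less factor that patterns the outer part of legs and antennae. It had 2409, 1580, 1813, 1346 and 1292 CPM in replicates 3 to 7 and held 85.9% of the summed CPM of 12 patterning factors. With plain library sizes its 5 values lay within 1.17-fold. Eyg had 186 ± 59.0 CPM and Emc, an inhibitor of basic helix-loop-helix factors, 70.4 ± 15.9 CPM. Per kb Emc was the highest of the 12 in every library, with a mean of 31.5 CPM against 22.2 for Dll, which spans 75944 bp. Antp, the Hox gene whose activity turns antenna into leg in Drosophila, had 5.08 ± 1.71 CPM, or 0.0326 CPM per kb, and cad rested on 2 reads. Genes of sex determination were all read: Dsx had 351 ± 60.9 CPM, Fem 196 ± 96.2, tra2 52.4 ± 15.9 and Csd 18.2 CPM on average, from 10.4 to 28.1. Per kb Fem was the highest of these, at 26.2 CPM against 3.83 for Dsx. The clock gene Per had 245 ± 18.1 CPM and its partner Cry2 28.6 ± 9.16 CPM.

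**Figure D4:**
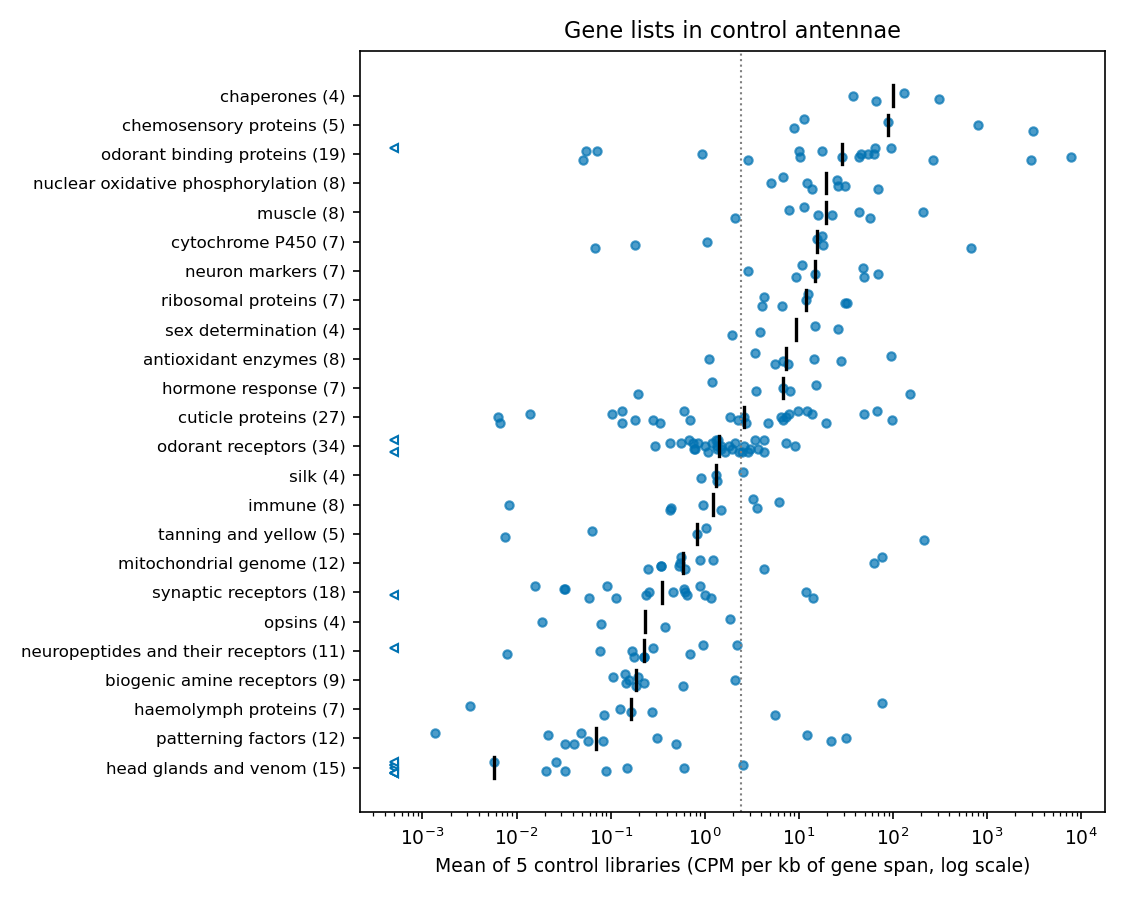
Mean CPM per kb of gene span (log scale, n = 5 control libraries) of every member of the gene lists with at least 4 members; points are genes, black bars list medians, open triangles genes without a read, numbers in brackets list sizes, and the dotted line the median of all protein-coding genes (2.44). Odorant-binding proteins spread from no read to 7821, while odorant receptors have a median of 1.43.

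Most reads on long noncoding RNA were on Ancr-1, a nuclear RNA first found in bees. It had 9040, 5867, 8267, 2928 and 3513 CPM, which placed it among the 24 highest genes of every library, and it overlaps another gene. LOC100577945 (1519 ± 318 CPM, also overlapping) and LOC102653599 (1175 ± 132 CPM) followed. Their CV depended on the scaling: LOC102653599 had 0.112 with TMM and 0.260 with plain library sizes, and LOC100577945 had 0.209 and 0.0597.

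The 5 libraries ranked genes alike. Over 8871 genes with a mean of at least 1 CPM, Spearman's rho between libraries ran from 0.937 (replicates 3 and 7) to 0.987 (replicates 6 and 7), as a description across genes. Of the 100 most read genes of a library, 79 to 91 were shared with any other. Among 5212 genes with a mean of at least 10 CPM, the median CV was 0.224, and 3031 genes (58.2%) had a CV below 0.25. The highest library was less than 2-fold above the lowest for 3414 genes (65.5%). The common biological coefficient of variation from edgeR was 0.307 over the 5 libraries and 0.254 without replicates 6 and 7.

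The order of libraries depended on the scaling for many genes. TMM factors were 0.783, 1.02, 0.910, 1.23 and 1.27 for replicates 3 to 7, so that the shift between TMM and plain library sizes ran from −0.35 to 0.34 on the log2 scale. With TMM, 1922 of the 5212 genes were highest in replicate 3 and 880 in replicate 7. With plain library sizes the numbers were 545 and 2021. The most read genes were affected as well: the 174 genes with at least 1000 CPM had a median CV of 0.306 with TMM and 0.174 with plain sizes, while the 3658 genes between 10 and 100 CPM had 0.219 and 0.279.

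Among genes with a symbol, the 8 with the smallest CV were Ube2g1 (0.0304), Eif4g (0.0348), Ip3k (0.0521), MARCH6 (0.0701), Per (0.0738), Rep (0.0745), RpL35 (0.0787) and Obp10 (0.0802). Eif4g, a scaffold of translation initiation, had 807, 759, 818, 812 and 767 CPM. Ube2g1, a ubiquitin-conjugating enzyme, had 52.95, 57.4, 56.2, 55.9 and 54.7 CPM. The 5 values of each were nearly level, although with plain sizes Ube2g1 had a 1.67-fold range, Eif4g 1.57-fold, Obp10 1.82-fold and RpL35 1.83-fold.

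The 8 with the largest CV were Obp19 (1.80), TpnCIIIb (1.57), CPR6 (1.17), Vg (1.07), CSP6 (1.05), Apd-1 (1.01), Obp21 (0.960) and Obp16 (0.907). The genes include 3 odorant-binding proteins, 1 chemosensory protein and 2 cuticle proteins. The choice was small, as only 830 genes have a symbol other than an LOC number. Of the listed genes, 14 odorant-binding proteins, 5 chemosensory proteins and 12 cuticle genes had a mean of at least 10 CPM. Whether a family is over-represented was not tested, and Obp10 is among the 8 smallest. Obp19 and TpnCIIIb stood far above the rest in replicate 4 and CSP6 in replicate 3. CPR6 was high in both replicates 6 and 7, and Apd-1 was low in both. Only 16 of the 5212 genes had a CV of 1 or more.

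**Figure D5:**
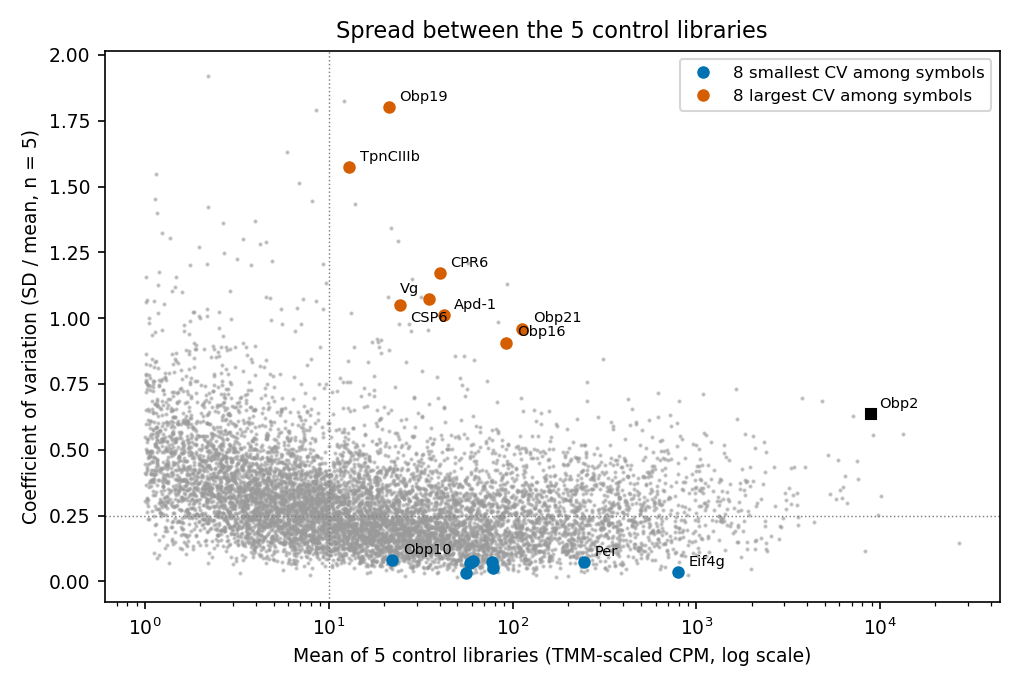
Coefficient of variation (SD divided by mean, n = 5 control libraries) against mean TMM-scaled CPM (log scale) for genes with a mean of at least 1 CPM; blue and orange points are the 8 genes with the smallest and the largest value among those with a symbol and at least 10 CPM, and dotted lines mark 10 CPM and 0.25. Obp19 reaches 1.80 at a mean of 21.1 CPM, Eif4g 0.0348 at 793 CPM, and Obp2 (black square) 0.635 at 8869 CPM; labels of 5 blue points near 50 to 100 CPM are left off.

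Some further genes with a symbol were among the most read, and they were chosen here after their values had been seen. They include the axon guidance and adhesion gene Dscam (789 ± 405 CPM), the forkhead factor Foxp (1340 ± 409), glutamine synthetase GlnS (700 ± 340) and the acetylcholinesterase gene AChE-2 (571 ± 314). With TMM scaling, Dscam, GlnS and AChE-2 were highest in replicate 3 and lowest in replicates 6 and 7, as brp was. AChE-2, for example, had 961, 569, 800, 261 and 265 CPM in replicates 3 to 7.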

How the data were processed

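RNA from antennae was isolated with a PicoPure kit, depleted of ribosomal RNA with a Ribozero kit and made into stranded TruSeq libraries, per the labels' protocols; the labels call the molecule polyA RNA. What the authors deposited are unnormalised counts, 1 table for each library. The submitters' processing notes name STAR 2.7.3a. Per the file headers, featureCounts (Subread 2.0.0) then assigned reads to whole gene spans of Amel_HAv3.1 under strand setting 2. Intronic reads therefore count, and no option for multiply mapped reads or overlapping genes was set, so such reads are left out; 1279 genes overlap another on the same strand. Per the file headers, the counted alignment is named after a read 1 file.

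Symbols came from the RefSeq gene table of Amel_HAv3.1 by unique match of linkage group, start and end (12325 matched, 7 not). Reads were scaled with TMM over all 10 libraries (edgeR 4.0.16, R 4.3.3) after filterByExpr. CPM, read counts scaled to library size, uses the total over bee genes times this factor. TMM was also run on simulated counts of 5 libraries, which does not cover the scaling over all 10. CPM per kb divides by gene span, as exon lengths were not used here. No groups were compared and no p-values were made. Depth was 9497211 to 23453690 reads; a floor for a count of 0 reflects counting error alone, since PCR copies were not told apart by molecular identifiers.

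The members and the 30 gene lists were chosen with earlier results of these data known. The text names the 20 genes with the highest mean CPM; the 10 protein-coding genes highest per kb; of each list the 3 highest members and the lowest, or all in lists of up to 6 and in both carrier families; Or2; the 8 smallest and 8 largest CV among symbols with at least 10 CPM; and the 3 highest long noncoding RNA genes. Others, such as Or11, Or19, TpnCIIIa, Antp, RpL32, Hex110, Vhdl, E74, Usp, Br-c, CPR21 and the last 4 genes of the report, were named after their values were seen. Alternatives were other scalings, other detection limits, leaving out overlapping genes and leaving out libraries. DESeq2 1.42.0 gave size factors for 1 of them.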

Additional observations from a re-analysis of the deposited data

Results flagged for a closer look

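Of 176 values examined over the 5 libraries by Dixon's ratio, 15 (8.52%) had 1 library far from the others. The limit used gives about 1 in 20 by chance for normally distributed values, and the share found cannot be judged against that rate. Genes with reads in 1 library alone pass the limit by construction. Some of the genes examined were also named for their large CV. No explanation was tested for any of them.

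Mir3759 was low in replicate 5, at 20003 CPM against 27482 to 30076. With plain library sizes it had 18203 CPM there and 23562 to 36104 elsewhere. Replicate 3 stood above the rest for LOC408695 (1119 CPM, next 513), CSP6 (69.4 CPM, next 21.3), Sod1 (219 CPM, next 119), MsrA (7.12 CPM, next 3.68) and the summed share of patterning factors (0.218% of reads, next 0.194%). Replicate 4 stood above the rest for Obp19 (89.1 CPM, next 7.80), TpnCIIIb (49.2 CPM, next 5.72) and PPO (20.7 CPM, next 7.22).

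The other values rest on 1 to 8 reads in the library named: CPR13 in replicate 6 (0.0756 CPM), Def2 in replicate 6 (0.0378 CPM), Hex70c in replicate 4 (0.0644 CPM), Lop2 in replicate 5 (0.136 CPM), ATP8 in replicate 7 (0.270 CPM) and cad in replicate 7 (0.0674 CPM).

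Among the virus genomes, which the report leaves out, replicate 6 had 2582 reads on Israeli acute paralysis virus, and the other 4 control libraries had 1 to 19.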

How the results depend on the processing

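The number of genes detected in every library stayed between 7948 and 8871 over the alternatives run, against 8040. The share of the 10 most read genes was 12.3% without genes that overlap on the same strand, against 10.96%; the removed genes leave the total as well. The median CV ran from 0.176 without replicates 6 and 7 to 0.252. Leaving out each library in turn gave a median CV of 0.188 to 0.242 and 2722 to 3530 genes with a CV below 0.25. The 100 highest by reads and per kb shared 25 to 29 genes. At least 19 of the 20 most read genes remained among them under each scaling and without each library.

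Without overlapping members, 2 lists moved by more than their SD: synaptic receptors to 0.0634% and neuropeptides to 0.00231% of reads. With plain library sizes, the means of Ube2g1 (57.8 CPM) and Eif4g (823 CPM) moved beyond their small SD. Leaving out 1 library moved the mean of 12 of 131 named genes with at least 1 CPM by over 1.5 times; besides those given above, Obp21 came to 71.97 CPM and Obp16 to 60.5 CPM without replicate 3, Vhdl to 0.983 and PPO to 3.89 CPM without replicate 4, and Apd-1 to 27.7 CPM without replicate 5.

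Levels per kb of exon were not run, as the gene table used here gives spans. No paired analysis was possible because the results come from no test. Values under 1 CPM rest on few reads, and 5 libraries limit every SD.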
